A study of Arabidopsis thaliana with 15 samples.

Results

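The JAZ (JASMONATE ZIM-DOMAIN) genes encode repressors of the jasmonate response of plants. The 10 genes described here, JAZ1 to JAZ6, JAZ8, JAZ9, JAZ10 and JAZ12, were chosen by gene identifier, with earlier results of these data known. They are 10 of the 33323 genes in the deposited expression table, and all 10 had enough reads to be tested. Below, the family means these 10, and JAZ7 and JAZ11 are given separately. RNA was sequenced from closed flower buds of Arabidopsis thaliana, from plants that were 5 weeks old, of the Col0 background, untreated and grown in a greenhouse under long days. The 5 genotypes had 3 libraries each: wild type (WT), 2 genotypes named for REF6 alone (ref6-3 and ref6C), elf6-3ref6C, called the double mutant, and elf6-3ref6Cjmj13G, called the triple mutant. REF6, ELF6 and JMJ13 are known as Jumonji-type demethylases that remove methyl groups from lysine 27 of histone H3, a mark of silenced genes. Every mutant other than ref6-3 carried ref6C, and no group carried elf6-3 or jmj13G alone. The labels describe neither the lesion in each allele nor how many plants or lines stand behind a library, so the p-values reflect library-to-library spread alone, and this could be technical.

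JAZ proteins sit on transcription factors such as MYC2 and recruit corepressors, directly or through the adaptor NINJA, so that jasmonate response genes stay off. The active hormone, a conjugate of jasmonic acid with isoleucine, joins a JAZ protein to the F-box receptor COI1, and the JAZ protein is then ubiquitinated and destroyed. Many JAZ genes are themselves targets of MYC factors and are induced by jasmonate, which makes the family a negative feedback on the pathway. In flowers, jasmonate is needed for stamen filament growth, anther opening and pollen maturation, and JAZ proteins bind the stamen factors MYB21 and MYB24.

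The promoter windows below are shown because MYC factors are known to bind the G-box and its variant the T/G-box. For every protein-coding gene, the 300 bases before the annotated start in RefSeq's TAIR10.1 assembly were searched on both strands for the G-box CACGTG, for the T/G-box AACGTG and for the motif REF6 is known to bind, as CTCTGCTC, CTCTGCTT, CTCTGTTC or CTCTGTTT. The G-box was in 3 of the 10 JAZ windows, those of JAZ2, JAZ3 and JAZ8, and in 7.09% of the 27443 windows of all protein-coding genes. The T/G-box was in 4 of the 10, those of JAZ3, JAZ5, JAZ6 and JAZ12, and in 8.71% of all windows. The REF6 motif was in 0 of the 10 and in 6.87% of all windows, and no matches of different motifs overlapped. The 4 windows with a T/G-box are printed 5′ to 3′ on the strand of the gene, with motif matches on either strand in capitals. They cover JAZ3 (chr3:6119407-6119706, plus strand), JAZ5 (chr1:5957512-5957811, minus strand), JAZ6 (chr1:27276563-27276862, minus strand) and JAZ12 (chr5:7090404-7090703, plus strand).
JAZ3: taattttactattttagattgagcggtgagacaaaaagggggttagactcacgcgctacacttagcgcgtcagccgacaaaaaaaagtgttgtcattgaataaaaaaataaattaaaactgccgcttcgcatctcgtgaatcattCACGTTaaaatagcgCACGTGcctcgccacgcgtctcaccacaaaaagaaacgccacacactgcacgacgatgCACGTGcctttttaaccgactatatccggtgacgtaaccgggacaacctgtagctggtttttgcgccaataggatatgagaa
JAZ5: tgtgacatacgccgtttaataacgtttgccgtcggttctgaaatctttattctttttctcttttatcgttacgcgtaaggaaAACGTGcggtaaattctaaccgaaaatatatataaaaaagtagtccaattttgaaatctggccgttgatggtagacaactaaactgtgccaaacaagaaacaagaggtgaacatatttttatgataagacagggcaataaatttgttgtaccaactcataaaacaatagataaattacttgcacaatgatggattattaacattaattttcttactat
JAZ6: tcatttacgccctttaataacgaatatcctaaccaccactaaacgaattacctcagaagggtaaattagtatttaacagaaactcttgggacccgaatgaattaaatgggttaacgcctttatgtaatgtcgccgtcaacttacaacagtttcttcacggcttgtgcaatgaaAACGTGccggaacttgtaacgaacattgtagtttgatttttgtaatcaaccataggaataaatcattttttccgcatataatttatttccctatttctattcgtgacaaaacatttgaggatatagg
JAZ12: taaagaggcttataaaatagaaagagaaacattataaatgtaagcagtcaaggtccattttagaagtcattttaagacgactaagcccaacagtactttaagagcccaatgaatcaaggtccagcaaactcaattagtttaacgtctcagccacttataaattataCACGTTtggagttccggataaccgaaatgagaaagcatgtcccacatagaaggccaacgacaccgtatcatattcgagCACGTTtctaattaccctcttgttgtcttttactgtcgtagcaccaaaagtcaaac
JAZ3 holds 2 G-boxes and 1 T/G-box, JAZ5 and JAZ6 hold 1 T/G-box each, and JAZ12 holds 2 T/G-boxes. In the tests given further on, JAZ5 and JAZ6 were lower than in WT in all 4 mutants, JAZ3 was lower in 3 and higher in ref6C, and JAZ12 was lower in none. Among members without a T/G-box, JAZ1, JAZ2 and JAZ9 were lower in all 4. JAZ8 was lower in all but ref6-3, JAZ10 in all but ref6C, and JAZ4 in the double and triple mutants only. A match describes only the letters of the window.

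Total counts were between 26009591 and 34140165 per library. The library ref6C replicate 3 had counts in 29547 genes against 25055 to 25712 in the other 14. A deposited note says that the authors left it out of their statistics. It was kept here, and results of the JAZ gene tests that change without it are named. Summed levels, gene lists, tissue markers and similar patterns were not recomputed without it. REF6 itself was at 69.4 ± 1.9 CPM (counts scaled to library size, SD, n = 3) in WT and at 32.9 to 36.9 on average in the 4 mutants. ELF6 averaged 61.3 CPM in WT, 60.4 in ref6-3 and 56.8 in ref6C, against 2.53 in the double and 8.67 in the triple mutant. AT5G46910, listed here as JMJ13 although the reference gives it no such symbol, averaged 24.8 CPM in WT, 21.5 in ref6-3 and 22 in ref6C. It averaged 18.3 CPM in the double and 9.04 in the triple mutant. The bud markers AP1, AP3, PI, AG and SEP3 were expressed in every library.

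Levels of different JAZ genes were compared in FPKM, the deposited values scaled to transcript length. JAZ9 led the family in WT buds with 233 ± 4.5 FPKM (SD, n = 3). JAZ6 at 97.7 ± 1.8 and JAZ12 at 94.1 ± 1.7 followed, and their WT libraries overlapped. JAZ2 had 46.6 ± 2.5, JAZ10 36.2 ± 1.6, JAZ1 31.8 ± 1.2, JAZ5 24.5 ± 0.32 and JAZ3 21.4 ± 0.85 FPKM, and none of these neighbours overlapped. JAZ8 with 4.08 ± 0.57 and JAZ4 with 0.69 ± 0.12 FPKM were the least abundant. The order depends on the length used: per kilobase of annotated exon, JAZ12 stood above JAZ6 and JAZ1 above JAZ10, and 6 of the 10 genes kept their place. Per kilobase of annotated coding sequence, JAZ3 also stood above JAZ5, and 4 kept their place.

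The family's summed level was lower in every mutant. The sum was 590 ± 6.9 FPKM in WT (SD, n = 3) and then 526 ± 2.1 in ref6C, 478 ± 8.5 in ref6-3, 377 ± 6.9 in elf6-3ref6C and 338 ± 0.74 in the triple mutant. These are 89.1%, 81%, 63.9% and 57.3% of WT, and the libraries of the 5 genotypes did not overlap. Its composition shifted as well. JAZ9 made up 39.5% of the WT sum, 36.6% for ref6C, 37.1% for ref6-3, 30.5% for the double and 28.5% for the triple mutant. JAZ12, which averaged between 93.1 and 96.4 FPKM in the 5 genotypes, went from 15.9% in WT to 25.5% in the double and 27.5% in the triple mutant, where it came close to JAZ9. These shares are descriptions without a test.

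**Figure D1:**
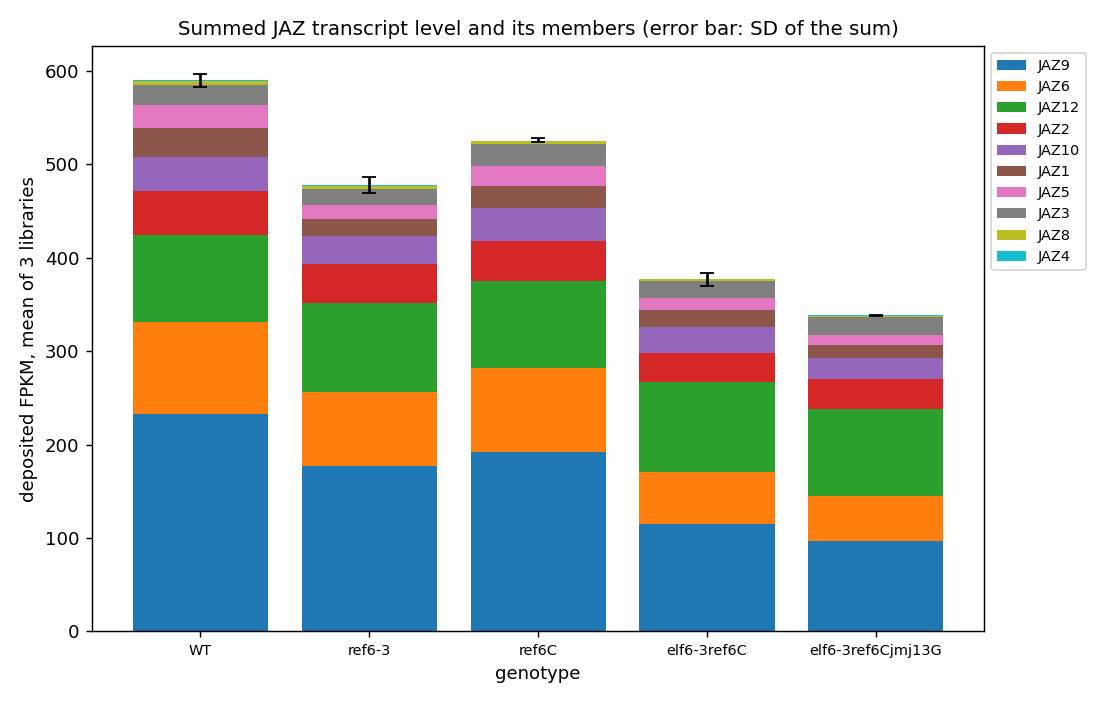
Summed deposited FPKM of the 10 JAZ genes in each genotype, stacked by gene as means of 3 libraries; the error bar is the SD of the sum. The sum falls from 590 in WT to 338 in elf6-3ref6Cjmj13G while the JAZ12 block stays near its WT height.

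Genotypes were compared in counts, shown as TMM-normalized CPM and tested with edgeR's quasi-likelihood test, with Benjamini-Hochberg adjusted p-values over the 22411 genes tested and a call at an adjusted p under 0.05. In ref6-3, 7 of the 10 JAZ genes were lower than in WT and 0 were higher; of all genes tested, 18.5% were lower and 16.2% higher. In ref6C, 6 were lower and 1 higher, against 20.4% lower and 18.4% higher among all genes. In elf6-3ref6C, 9 were lower and 1 higher, against 34.8% and 33.7%. In the triple mutant, 9 were lower and 0 higher, against 34.4% and 32%. The median log2 fold change of the 10 genes was -0.32 for ref6-3, -0.12 for ref6C, -0.79 for elf6-3ref6C and -0.92 for the triple mutant, while the median of all genes tested was within 0.01 of 0 in each. These 4 comparisons share the same WT libraries and are not independent of each other. A fall of at least 2-fold was called for JAZ8 alone in elf6-3ref6C, against 9.93% of all genes, and for JAZ1, JAZ5, JAZ8 and JAZ9 in the triple mutant, against 10.1%. In bulk tissue, fewer cells of a type and less RNA per cell cannot be told apart.

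**Figure D2:**
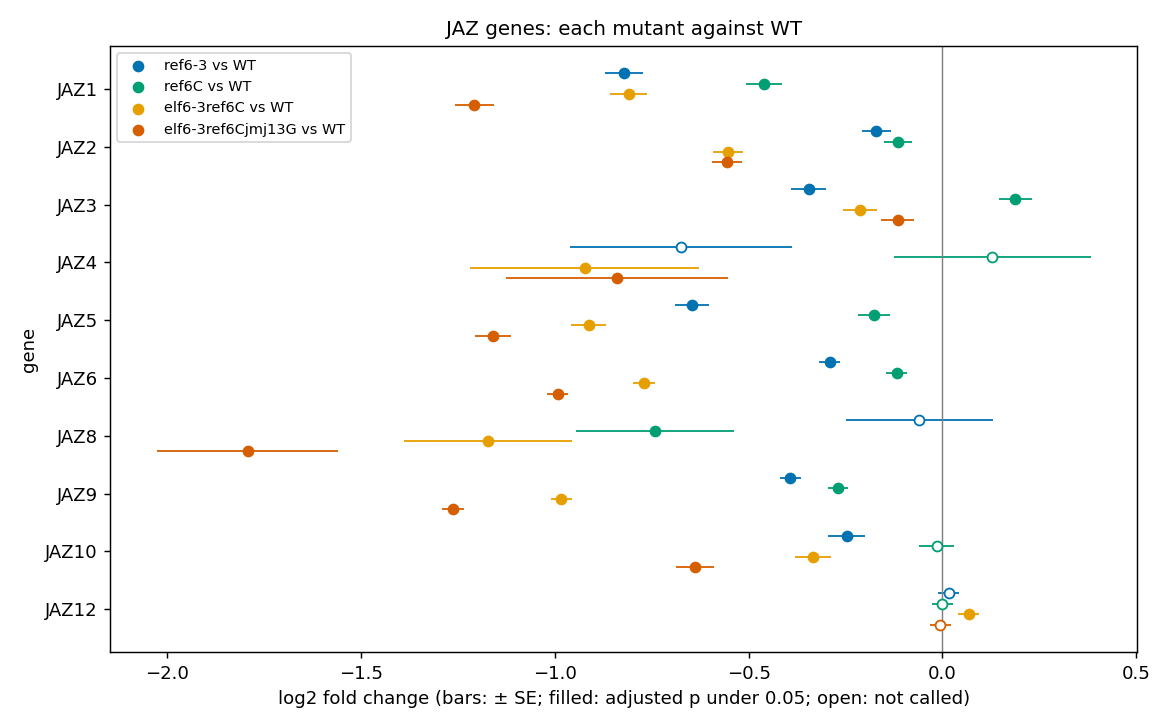
log2 fold change of each JAZ gene (vertical axis) in the 4 mutants against WT (horizontal axis), with bars of ± SE and filled points where the adjusted p was under 0.05. In the triple mutant 9 of the 10 genes lie left of 0 and are called, and JAZ12 lies at 0.

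JAZ9 (AT1G70700), TIFY7 in the reference, is on chromosome 1 (26654529 to 26657350, TAIR10.1) and its protein's hormone-binding part is used in a fluorescent jasmonate sensor. Its WT libraries had 265, 276 and 271 CPM. The ref6-3 libraries had 209, 210.2 and 200.4 CPM, and those of ref6C 228, 221 and 226. The double mutant had 138, 139 and 134 CPM, and the triple mutant 112, 117 and 110.5. Every genotype was apart from the next in the order WT, ref6C, ref6-3, elf6-3ref6C, triple mutant. The share of all genes whose genotypes lie apart was not counted, here or for the members below. Against WT, JAZ9 fell by 0.27 ± 0.027 (log2, SE) in ref6C, by 0.39 ± 0.027 in ref6-3, by 0.98 ± 0.028 in the double and by 1.26 ± 0.029 in the triple mutant, with edgeR adjusted p of 6.1e-09, 3.9e-12, 2.7e-21 and 2.7e-23. The triple mutant kept 41.7% of the WT level.

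JAZ3 and JAZ4 are the relatives of JAZ9 in sequence. JAZ3 (AT3G17860) is also known as JAI3, after a jasmonate-insensitive mutant in which a truncated JAZ3 resists breakdown. Its WT libraries had 31.1, 31.3 and 29.2 CPM, and its ref6C libraries stood above them all with 35.6, 33.5 and 35.6. The ref6-3 libraries were the lowest with 24.1, 24.0 and 24.2 CPM. In the double mutant they were 27.9, 26.5 and 25.1 CPM, and in the triple mutant 28.2, 27.4 and 29.0, and these overlapped. JAZ3 rose by 0.19 ± 0.042 (log2, SE) in ref6C, with an edgeR adjusted p of 6.5e-04. It fell by 0.35 ± 0.045 in ref6-3 (edgeR adjusted p = 5.7e-07) and by 0.21 ± 0.044 in the double mutant (edgeR adjusted p = 0.00012). The fall of 0.12 ± 0.043 in the triple mutant, at an edgeR adjusted p of 0.02, did not hold with DESeq2 (0.079), without the filter on low counts (0.052), or without WT replicate 1 (0.065), WT replicate 2 (0.085) or triple mutant replicate 2 (0.082).

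JAZ4 (AT1G48500) was near the limit of what these libraries could measure, with 9 to 33 reads per library. WT had 1.08, 0.789 and 0.835 CPM, ref6C 0.749, 1.01 and 1.2, and ref6-3 0.449, 0.620 and 0.611. Levels in the double mutant were 0.351, 0.706 and 0.370 CPM and the triple mutant 0.393, 0.404 and 0.687. WT and ref6C overlapped, while the other 3 genotypes lay below WT and overlapped with each other. JAZ4 fell by 0.92 ± 0.29 (log2, SE) in the double mutant (edgeR adjusted p = 0.0074) and by 0.84 ± 0.29 in the triple mutant (edgeR adjusted p = 0.012). The first call was lost without double mutant replicate 3 (0.053) and the second without WT replicate 1 (0.067), triple mutant replicate 1 (0.064) or triple mutant replicate 2 (0.053). In ref6-3 the log2 difference was -0.67 ± 0.29 with an edgeR adjusted p of 0.07, and 0.048 when those 2 groups alone were fitted.

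JAZ1, JAZ2, JAZ5 and JAZ6 form the branch of the family closest to JAZ1. JAZ1 (AT1G19180), one of the first JAZ proteins shown to be destroyed through COI1, is on chromosome 1 (6621777 to 6623668, TAIR10.1). Its WT libraries had 38.5, 41.5 and 38.9 CPM. The ref6-3 libraries had 22.7, 22.1 and 22.6 CPM and those of ref6C 30.7, 28.3 and 27.6. The double mutant had 23.9, 22.7 and 21.6 CPM, and the triple mutant was lowest with 17.4, 15.9 and 18.2. Only ref6-3 and the double mutant overlapped. JAZ1 fell by 0.82 ± 0.049 (log2, SE) in ref6-3, the largest of the 10 falls there, by 0.46 ± 0.046 in ref6C, by 0.81 ± 0.048 in the double and by 1.21 ± 0.05 in the triple mutant, with edgeR adjusted p of 1.1e-13, 5e-09, 2.5e-14 and 1.1e-17.

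JAZ5 (AT1G17380) had 25.7, 25.6 and 25.9 CPM in WT. It had 22.4, 23.1 and 22.8 CPM in ref6C and 16.1, 16.9 and 16.3 in ref6-3. The double mutant had 13.9, 13.8 and 13.3 CPM and the triple mutant 11.1, 11.5 and 11.9. No 2 genotypes overlapped, in the same order as for JAZ9. JAZ5 fell by 0.18 ± 0.041 (log2, SE) in ref6C, 0.65 ± 0.044 in ref6-3, 0.91 ± 0.045 in the double and 1.16 ± 0.046 in the triple mutant, all called by edgeR, the weakest with an adjusted p of 0.0011.

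JAZ6 (AT1G72450), the second most abundant member by FPKM, had 116, 113 and 116 CPM in WT. It had 105, 107 and 106 CPM in ref6C and 92.1, 97.4 and 92.8 in ref6-3. Double mutant libraries had 67.6, 67.5 and 67.6 CPM and the triple mutant 58.2, 57.8 and 57.5. Again no 2 genotypes overlapped, in the order of JAZ9 and JAZ5. JAZ6 fell by 0.12 ± 0.027 (log2, SE) in ref6C, 0.29 ± 0.027 in ref6-3, 0.77 ± 0.028 in the double and 0.99 ± 0.028 in the triple mutant, where 50.2% of the WT level was left; the largest of the 4 edgeR adjusted p-values was 0.00091.

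JAZ2 (AT1G74950), which is known for its part in stomatal guard cells, is next. WT had 52.4, 58.4 and 56.6 CPM, ref6-3 49.3, 50.0 and 49.6, and ref6C 51.2, 53.4 and 50.1. The double mutant had 37.9, 37.8 and 38.5 CPM and the triple mutant 38.0, 36.7 and 39.2. The libraries thus fell into a higher band of WT and single mutants and a lower band of the multiple mutants. JAZ2 fell by 0.55 ± 0.039 (log2, SE) in the double and by 0.56 ± 0.039 in the triple mutant, with edgeR adjusted p of 9.4e-13 and 8.1e-13. In ref6-3 it fell by 0.17 ± 0.038 (edgeR adjusted p = 0.00071). The fall of 0.11 ± 0.037 in ref6C had an edgeR adjusted p of 0.015, WT and ref6C overlapped, and the call was lost without WT replicate 2 (0.13), WT replicate 3 (0.05) or ref6C replicate 3 (0.08).

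**Figure D3:**
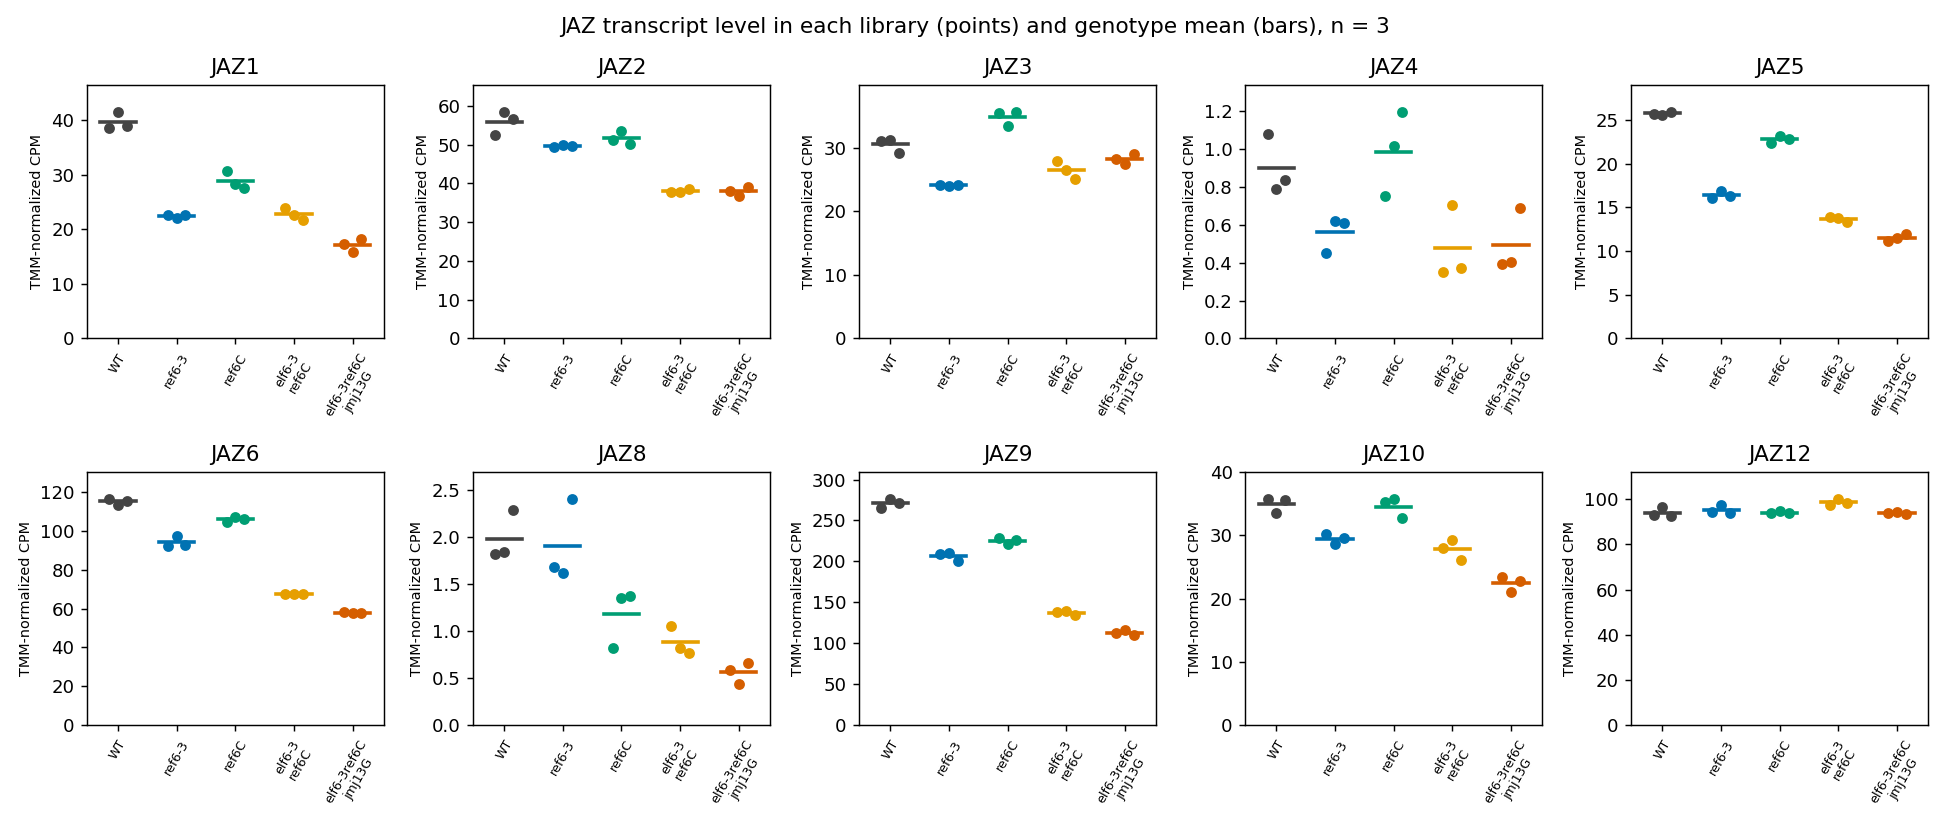
TMM-normalized CPM of each JAZ gene (vertical axes, each from 0) in the 15 libraries, grouped by genotype; points are libraries and bars are means of 3. JAZ5, JAZ6 and JAZ9 step down through WT, ref6C, ref6-3, elf6-3ref6C and elf6-3ref6Cjmj13G without overlap, and the JAZ12 libraries stay between 92.4 and 100.1. The share of all genes without overlap was not counted.

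JAZ8 (AT1G30135) lacks the usual hormone-dependent degron, so that its protein resists breakdown, and it binds corepressors directly. It was measured with 12 to 63 reads per library. WT had 1.82, 1.84 and 2.29 CPM and ref6-3 had 1.68, 1.62 and 2.41, which overlapped. The ref6C libraries had 0.818, 1.35 and 1.38 CPM, the double mutant 1.05, 0.818 and 0.772, and the triple mutant 0.589, 0.440 and 0.656. Every library with the ref6C allele lay below every WT library. JAZ8 fell by 0.74 ± 0.2 (log2, SE) in ref6C, by 1.17 ± 0.22 in the double and by 1.79 ± 0.23 in the triple mutant, with edgeR adjusted p of 0.005, 3.1e-05 and 1.6e-07. The triple mutant kept 28.9% of the WT level, the lowest share of the 10 genes. In ref6-3 the difference was -0.06 ± 0.19 with an edgeR adjusted p of 0.85.

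JAZ10 (AT5G13220), whose splice variants lack parts of the degron and dampen the response, is on chromosome 5 (4218786 to 4221077, TAIR10.1). WT had 35.8, 33.6 and 35.6 CPM and ref6C 35.3, 35.7 and 32.7. The ref6-3 libraries had 30.2, 28.6 and 29.6 CPM, the double mutant 27.9, 29.3 and 26.1 and the triple mutant 23.4, 21.0 and 22.9. ref6C overlapped with WT, ref6-3 with the double mutant, and the triple mutant with neither. JAZ10 fell by 0.25 ± 0.047 (log2, SE) in ref6-3, by 0.33 ± 0.047 in the double and by 0.64 ± 0.049 in the triple mutant, with edgeR adjusted p of 0.00014, 6.2e-07 and 6.2e-12. The ref6C difference was -0.01 ± 0.045 (edgeR adjusted p = 0.84). The gene overlaps AT5G02045 on the other strand by 71 bases, and the sources used here do not say whether the counting used strand.

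JAZ12 (AT5G20900), whose protein is known to be bound by the ubiquitin ligase KEG, was the most even member. WT had 93.0, 96.6 and 92.4 CPM, ref6-3 94.1, 97.3 and 94.0, and ref6C 93.8, 94.7 and 93.7. Double mutant libraries had 97.5, 100.1 and 98.3 CPM and the triple mutant 93.8, 94.2 and 93.3. The double mutant stood slightly above all others and the rest overlapped. Its rise of 0.07 ± 0.027 (log2, SE) in the double mutant had an edgeR adjusted p of 0.029, and was lost without the filter on low counts (0.072) and without WT replicate 1 (0.086), WT replicate 3 (0.11), double mutant replicate 2 (0.1) or double mutant replicate 3 (0.05). In the other 3 mutants the differences from WT were between -0.01 and 0.02 on the log2 scale, none called. JAZ12 overlaps 2 genes on the other strand, AT5G03235 by 211 bases and AT5G20910 by 28 bases, with the same limit.

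Comparing the mutants with each other showed where the family's level changed. Between the alleles ref6C and ref6-3, 7 of the 10 JAZ genes were higher in ref6C and 1 was lower, against 17.2% higher and 16.8% lower among all genes; the median difference was 0.20 on the log2 scale. JAZ3 differed by 0.53 ± 0.044 (log2, SE), JAZ5 by 0.47 ± 0.045 and JAZ1 by 0.36 ± 0.051, with edgeR adjusted p of 1.4e-10, 2.3e-09 and 2.5e-06. JAZ6, JAZ9 and JAZ10 were higher by 0.17, 0.12 and 0.23, the largest edgeR adjusted p being 0.00089. JAZ4 was higher by 0.80 ± 0.28 (edgeR adjusted p = 0.03), a call lost with DESeq2 (0.092) and without ref6-3 replicate 1 (0.12), ref6-3 replicate 3 (0.055), ref6C replicate 2 (0.074) or ref6C replicate 3 (0.13). JAZ8 ran the other way, lower in ref6C by a log2 difference of -0.68 ± 0.21 (edgeR adjusted p = 0.012), a call lost without ref6-3 replicate 3 (0.11) or ref6C replicate 1 (0.094).

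Between elf6-3ref6C and ref6C, which differ in elf6-3, 8 JAZ genes were lower and 1 was higher in the double mutant, against 30.6% lower and 30.7% higher among all genes, with a median of -0.43. JAZ5 fell by 0.74 ± 0.046 (log2, SE), JAZ9 by 0.71 ± 0.028 and JAZ6 by 0.65 ± 0.028, with edgeR adjusted p of 1.2e-13, 5.4e-18 and 4.3e-17. JAZ2, JAZ3, JAZ1 and JAZ10 fell by 0.44, 0.40, 0.35 and 0.32, the largest edgeR adjusted p being 1.9e-06, and JAZ4 fell by 1.05 ± 0.29 (edgeR adjusted p = 0.0029). JAZ8 had a difference of -0.43 ± 0.24 with an edgeR adjusted p of 0.12, and 0.025 without ref6C replicate 1. JAZ12 was the 1 gene called higher, by 0.07 ± 0.027 (edgeR adjusted p = 0.033), which was lost with DESeq2 (0.05), without the filter on low counts (0.059) and without ref6C replicate 1 (0.069), ref6C replicate 3 (0.081), double mutant replicate 2 (0.11) or double mutant replicate 3 (0.058).

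The triple and the double mutant differ in jmj13G by name, and their ELF6 transcript also differed, at 8.67 ± 1 and 2.53 ± 0.14 CPM (SD, n = 3). In the triple against the double mutant, 5 JAZ genes were lower and 0 higher, with a median of -0.24. Among all genes, 11.4% were lower and 8.58% higher. JAZ1 fell by 0.40 ± 0.056 (log2, SE), JAZ10 by 0.30 ± 0.051, JAZ9 by 0.28 ± 0.03, JAZ5 by 0.25 ± 0.052 and JAZ6 by 0.22 ± 0.03, the largest edgeR adjusted p being 0.00091. JAZ2 did not pass, with a difference of 0.00 ± 0.041 (edgeR adjusted p = 0.98), nor did JAZ3, JAZ4 and JAZ8. JAZ12 missed the threshold at an edgeR adjusted p of 0.061, and passed at 0.046 without WT replicate 2.

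**Figure D4:**
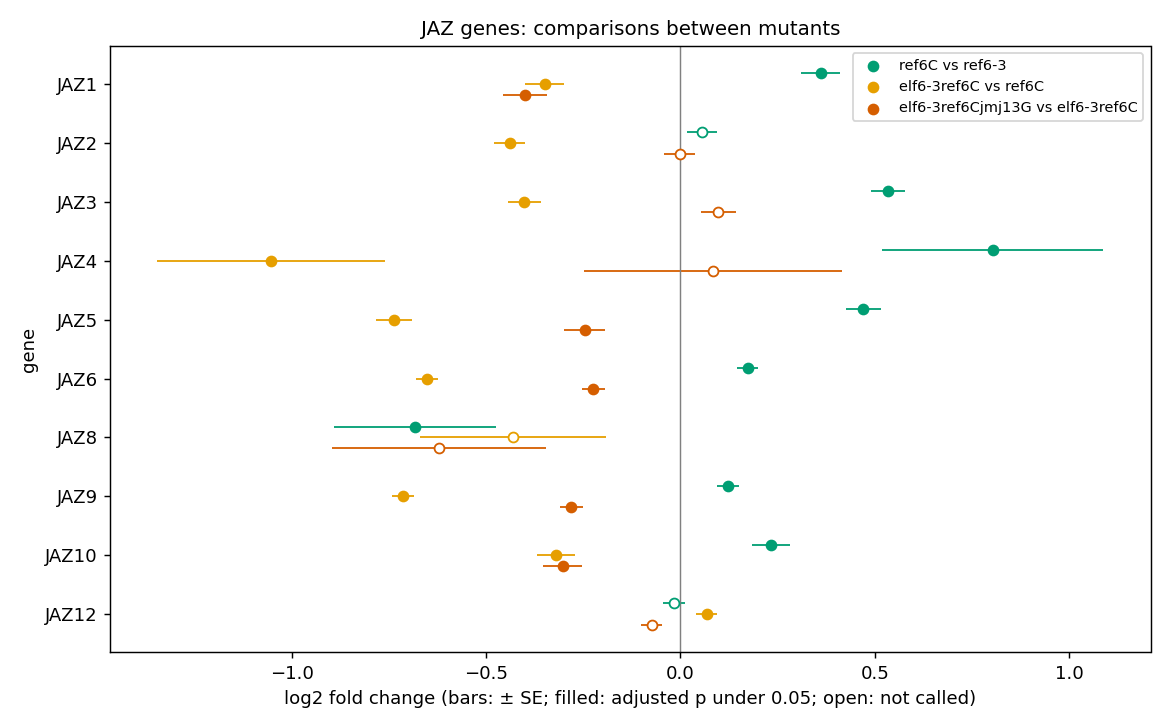
log2 fold change of each JAZ gene (vertical axis) in the 3 comparisons between mutants (horizontal axis), with bars of ± SE and filled points where the adjusted p was under 0.05. Most genes are higher in ref6C than in ref6-3 and lower in elf6-3ref6C than in ref6C, with JAZ8 and JAZ12 apart.

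The authors' deposited table, from which ref6C replicate 3 was left out, called 4 JAZ genes lower in ref6C, 7 in ref6-3, 9 in the double and 7 in the triple mutant, and 1 higher, in ref6C. Of all genes with an adjusted p in the authors' deposited table, 12.6% were lower in ref6C, 12.4% in ref6-3, 26.1% in the double and 26.2% in the triple mutant, and 9.8%, 10.7%, 25.8% and 25% were higher. In the counts tested here without ref6C replicate 3, 5 JAZ genes were lower in ref6C and 1 was higher, against 18.3% and 15.5% of all genes.

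The gene lists that follow are counted against the same shares of all genes as the family: 18.5%, 20.4%, 34.8% and 34.4% lower, and 16.2%, 18.4%, 33.7% and 32% higher, in ref6-3, ref6C, the double and the triple mutant. Nothing particular to a list is read from a count near its share. Among the other TIFY genes, JAZ7, a close relative of JAZ8, fell in all 4 mutants, from 1.52 ± 0.14 CPM in WT (SD, n = 3) to 0.794 ± 0.13 in ref6-3, 0.579 ± 0.063 in ref6C, 0.413 ± 0.029 in the double and 0.182 ± 0.068 in the triple mutant. JAZ11, the relative of JAZ12, was at 16.6 ± 0.54 CPM in WT and fell to 13.2 ± 0.2 in the double and 13.8 ± 0.28 in the triple mutant, with edgeR adjusted p of 4.9e-06 and 5.3e-05. The fall of JAZ7 in ref6-3, the smallest of its 4, had an edgeR adjusted p of 7e-04. Over the 6 other TIFY genes, 2, 2, 3 and 3 were lower in ref6-3, ref6C, elf6-3ref6C and the triple mutant, and 2, 0, 1 and 1 higher. These 6 include AT3G22275, listed here as JAZ13 although the reference gives it no such symbol. In ref6-3 their log2 fold changes ran from -2.727 to 0.208, the lowest in a gene other than JAZ7.

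Next come the partners of the JAZ proteins. Of 10 genes for the receptor complex and the corepressors, 1 was lower in ref6-3, 0 were in ref6C, 1 was in the double and 2 were in the triple mutant, and 1, 4, 5 and 4 were higher. COI1, the jasmonate receptor, was at 42.8 ± 0.22 CPM in WT and at 41 to 43.2 on average in the mutants, and was called in none. NINJA, the adaptor to the corepressor TOPLESS, was at 94.4 ± 2 CPM in WT and rose to 106 ± 1.6 in the double mutant, by 0.16 ± 0.03 on the log2 scale (edgeR adjusted p = 3.3e-05).

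Of 13 transcription factor genes whose proteins JAZ proteins bind, 12 were tested, and 4, 5, 7 and 6 were lower in ref6-3, ref6C, elf6-3ref6C and the triple mutant, and 1, 1, 3 and 1 higher. MYC2, the main activator of the response, averaged 60.9 CPM in WT and 59.3 to 64.9 in the mutants and was called in none. MYC4, which overlaps with MYC2 in function, fell in all 4, from 18.1 ± 0.65 CPM in WT (SD, n = 3) to between 8.01 and 9.42 on average. MYB21 fell from 11.8 ± 0.56 CPM in WT to 4.6 ± 0.52 in ref6C, 1.79 ± 0.2 in the double, 0.247 ± 0.049 in the triple mutant and 0.152 ± 0.18 in ref6-3. The MYB21 means of the triple mutant and ref6-3 differed by less than the SD of the ref6-3 libraries.

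Of 14 genes of jasmonate synthesis, 13 were tested, and 7, 4, 11 and 12 were lower in ref6-3, ref6C, elf6-3ref6C and the triple mutant, and 1, 5, 2 and 1 higher. LOX3, a lipoxygenase of the early steps, fell from 47.9 ± 3.4 CPM in WT (SD, n = 3) to 22.5 ± 0.96 in the triple mutant, and OPR3, the reductase required for stamen maturation, from 81.8 ± 0.61 to 55.8 ± 3.1, with edgeR adjusted p of 3.8e-17 and 1.1e-13. LOX2, a plastid lipoxygenase, was higher in ref6C by 0.28 ± 0.03 on the log2 scale (edgeR adjusted p = 2e-08), and fell by 0.36 in the double and 0.58 in the triple mutant. Of 7 genes of jasmonate breakdown, 6 were tested, and 5, 3, 5 and 5 were lower and 0, 1, 1 and 0 higher. Of 6 response genes, 3 were tested, and 1, 0, 1 and 1 were lower and 0, 3, 2 and 2 higher. VSP1 and VSP2, storage proteins induced by jasmonate, rose by 0.35 ± 0.024 and 0.38 ± 0.022 on the log2 scale in ref6C, with edgeR adjusted p of 2.3e-12 and 1.3e-13. In the triple mutant VSP1 fell by 0.70 ± 0.024 and VSP2 rose by 0.58 ± 0.022, with edgeR adjusted p of 1.6e-19 and 2.2e-18.

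Markers of the tissues in a bud also differed between genotypes. The summed level of 9 mature pollen genes was 660 to 698 CPM in WT, 516 to 539 in ref6C, 183 to 194 in ref6-3, 143 to 149 in the double and 210 to 218 in the triple mutant, and all 9 were lower in each mutant. The sum of 13 anther and tapetum genes was 2150 to 2230 CPM in WT and 2180 to 2210 in ref6-3, against 1470 to 1550 in ref6C, 1250 to 1280 in the double mutant and 1280 in the triple mutant, and all 13 were lower in those 3. The sum of 5 green tissue genes was 8100 to 8710 CPM in WT, 9350 to 9560 in ref6-3, 8450 to 8700 in ref6C, 7490 to 7580 in the double and 7000 to 7360 in the triple mutant. In the order ref6-3, ref6C, double and triple mutant, 5, 1, 2 and 1 of these genes were higher and 0, 2, 3 and 4 lower. Of the 5 bud markers, 4 were lower and 1 was higher in the triple mutant than in WT, with a median log2 fold change of -0.238. AP3, which specifies petals and stamens, had the largest of these falls, from 171 CPM in WT to 75.4 on average. AP1 went the other way, from 153 to 162 CPM. No marker gene was at 0 in any genotype, and the part of tissue composition in the JAZ results was not tested.

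For each JAZ gene, the gene with the most similar pattern over the 5 genotypes was sought among 18419 genes, by the root mean square difference of the centred genotype means of log2-CPM. The nearest member to JAZ9 was JAZ6, and the reverse, at 0.093. JAZ5 lay 0.12 from JAZ6, JAZ1 lay 0.13 from JAZ5, and JAZ2 and JAZ10 lay 0.12 apart. JAZ4 lay 0.15 from JAZ5, JAZ3 and JAZ12 lay 0.2 apart, and JAZ8 had the farthest nearest member, JAZ9 at 0.3. These distances are not scaled to how far a gene ranged over the genotype means. That range was 0.0726 for JAZ12, 0.533 for JAZ3 and 1.71 for JAZ8 on the log2 scale. Outside the family, the nearest gene to JAZ6 was JR1, a jasmonate-responsive lectin, at 0.029, and the nearest to JAZ5 was BPE, a basic helix-loop-helix factor that limits petal size, at 0.058. PYL6, an abscisic acid receptor, was nearest to JAZ8 at 0.05, and PIP5K5, a phosphatidylinositol phosphate kinase, to JAZ3 at 0.034. The nearest genes to the other members were AT1G72800, described in the files as an RNA-binding protein, to JAZ1 at 0.1, AT5G65040 to JAZ2 at 0.019 and AT1G13130, a cellulase by its description, to JAZ4 at 0.035. AT4G37530, a peroxidase by its description, was nearest to JAZ9 at 0.056, AT1G29640 to JAZ10 at 0.022 and QWRF1 to JAZ12 at 0.0065. Likeness over 5 means is a description, with no test.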

How the data were processed

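Counts per gene, FPKM and the authors' own statistics (log2 fold changes with p-values) came from 1 deposited table. The counts were deposited by the authors as whole numbers without normalization, and the sources used here do not say whether RSEM estimates were rounded. The FPKM values were made by the authors with RSEM, per the file headers. The authors' deposited log2 fold changes and p-values compare each mutant with WT; their sign was turned so that a positive value means higher in the mutant. Tools listed in the submitters' processing notes are RSEM 1.2.22, STAR and DESeq2, and the build listed is TAIR10.

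Counts of all 15 libraries were fitted together with edgeR 4.0.16, run in R 4.3.3 (the quasi-likelihood test on TMM-scaled libraries, filterByExpr by group with a minimum count of 10), which kept 22411 genes holding at least 99.88% of each library's counts. Each SE was the log2 fold change divided by the root of its F. The fit was tested on simulated data. Groups and replicate numbers came from the sample titles. Same-numbered libraries did not deviate together (r from -0.1071 to 0.1012 over 21 pairs), so no block was used. Replicates differed by more than sampling noise. Gene positions and promoters were read by locus tag from RefSeq's TAIR10.1; DESeq2 1.42.0 and other settings were alternatives. The members, gene lists and tests were chosen with earlier results of these data known. All 10 members were named, with the 1 gene outside the family nearest to each by pattern; list genes were named with their values, some after those were seen. List genes whose symbol the reference contradicts were left out.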

Additional observations from a re-analysis of the deposited data

How the results depend on the processing

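Of 70 JAZ gene comparisons, 55 were called. Among all 22411 genes tested, between 4483 and 15359 were called in each of the 7 comparisons, which share libraries. RLE size factors, a filter at 1 CPM and the replicate block changed 0 of the JAZ calls. With the replicate block, JAZ9 in the triple mutant against WT had a log2 fold change of -1.26 and the 10 JAZ genes had 9 lower. Removing the filter and DESeq2 ended 3 calls each, and fitting only the 2 groups compared added 1. Leaving out 1 library at a time ended 8 of the 55 calls at least once and added 2. Counts of JAZ genes that changed by over 1.5 times were the 3 counts of 1 gene. Genes higher in elf6-3ref6C than in WT went to 0 with no filter and were 0 to 1 without 1 library. Genes higher in elf6-3ref6C than in ref6C went to 0 with no filter and with DESeq2, and were 0 to 1 without 1 library. Genes lower in ref6C than in ref6-3 were 0 to 1 without 1 library. Of the larger counts, that of 9 genes lower in the triple mutant than in WT went to 8 with no filter and with DESeq2, and to 7 without WT replicate 1 or triple mutant replicate 2. The other counts differed by at most 1 gene in any setting. The order of levels in WT kept 6 of 10 places per kilobase of exon and 4 per kilobase of coding sequence, alternatives chosen after seeing the data. The second takes the place of a planned scaling to the coding length of a protein table, which was not used here. The direction of every called result held. No paired result is read from the numbers, which pair no libraries. Depth limits JAZ4 and JAZ8, with at most 33 and 63 reads per library.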
